A study of Rattus norvegicus with 2 samples.

Results

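Chemokines, interleukins and their receptors were read in rat liver RNA after an alcohol feeding period, with or without a propolis extract. The genes were taken by their symbol in the deposited table: those named Ccl, Ccr, Cxcl, Cxcr or Il followed by a number, together with Xcl1, Xcr1, Cx3cl1 and Cx3cr1. This gave 113 genes, read by 137 of the 41012 probes, among 17119 genes with a symbol. Where a gene had several probes, the brightest stands for it, the one with the highest mean log2 signal of both arrays. Of the 113 genes, 60 (53.1%) carried the detection letter P on at least 1 array and 53 on neither, while 69.6% of all genes with a symbol carried it on at least 1 array.

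The propolis pool came from rats given a compound abbreviated EEP, which the series title allows to be read as a propolis extract, in a 50% ethanol solution. The saline pool came from rats given normal saline. Either was given at 0.1% of body weight for 4 weeks to male Wistar rats of 22 weeks of age with alcoholic fatty liver, which 7 weeks of 52% alcohol at 1% of body weight had induced. The ethanol of the extract is thus part of the difference between the groups. Each pool combined liver RNA of 6 rats and was read on a single Agilent array in 1 colour, so there was no replicate, no test could be made, and array and treatment cannot be told apart. No rats without alcohol were analysed here. All 10 hepatocyte markers listed were detected, with Alb, the albumin gene, at a log2 signal of 18.08 in the propolis pool and 17.87 in the saline pool.

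Chemokines are small secreted proteins that guide leukocytes along a gradient and act through receptors coupled to G proteins. They are named after the spacing of their cysteines: CC, CXC, CX3C and C. Interleukins signal mostly through receptors that activate JAK kinases and STAT factors, while the IL-1 family and the IL-17 family signal through adaptor proteins to NF-kB. In liver, Kupffer cells, sinusoidal endothelium, stellate cells and lymphocytes make many of these factors, and hepatocytes respond to IL-6 and IL-1 by making acute phase proteins.

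Most members differed by less than 1.5-fold between the pools, though a smaller share of them than of all genes, and those at least 2-fold apart were more often lower than higher in the propolis pool, as over all genes. Differences are given on the log2 scale, propolis minus saline, and at least 2-fold means a difference of 1 or more in size. Among the 51 members with P on both arrays, 1 was at least 2-fold higher, against 1.75% of all 10977 such genes, and 5 were at least 2-fold lower, against 2.69%. Within 1.5-fold lay 36 of the 51 (70.6%), against 87.1% of all genes with P on both arrays. The median difference was -0.08, with 24 members above and 27 below 0, beside a median of 0.02 over all genes with P on both arrays, of which 47.1% lay below 0. The 5 lower genes were Il13, Ccl3, Cxcl17, Il18bp and Cxcl14, and the higher gene was Cxcl13. Just under 2-fold lay the receptor gene Cxcr4 (-0.97).

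**Figure D1:**
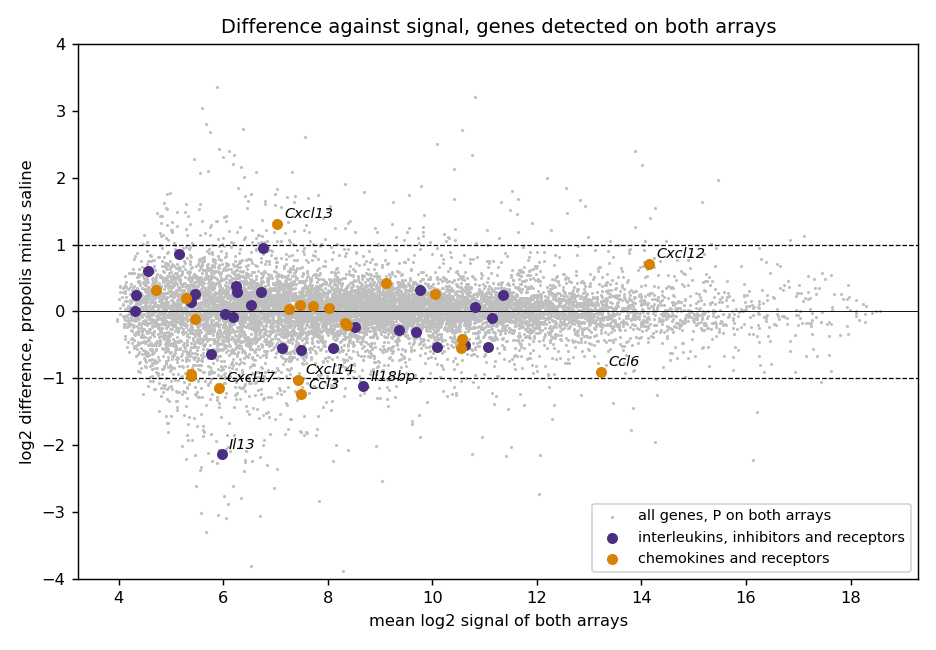
Log2 difference (propolis minus saline) against the mean log2 signal of both arrays for genes with P on both arrays, with all genes in grey, chemokines and their receptors in orange, and interleukins, inhibitors and interleukin receptors in purple. Dashed lines mark 2-fold; Cxcl13 lies above them, 5 members lie below them, and 6 genes that are not members fall outside the axis.

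Differences spread more widely at low signal, so the counts were also read by signal. Below a mean log2 signal of 6, 0 of 14 members were at least 2-fold higher and 2 lower, where 2.44% and 4.92% of all genes were. Between 6 and 8, 1 of 15 members was higher and 2 were lower, where 2.46% and 4.03% of all genes were. Between 8 and 12, 0 of 20 were higher and 1 was lower, where 1.12% and 1.34% of all genes were. These 20 members had a median of -0.25 with 14 of them below 0, where all genes had a median of 0.02 with 45.7% below 0. Below 6 and between 6 and 8 the members' medians were 0.07 and 0.08, with 6 of 14 and 6 of 15 below 0. At 12 or more, neither of the 2 members was at least 2-fold apart, where 1.33% of genes were higher and 1.07% lower. As a yardstick, the robust SD of a single probe's difference, from 2595 genes with a second probe detected on both arrays, was 0.16 log2 units over all these genes and 0.25 where the dimmer probe was under 6. It covers probe and spot error on these arrays. Errors that the probes of an array share and the spread between rats are left out.

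Another 9 members carried P on 1 array only, namely 3 in the propolis pool and 6 in the saline pool. Only a bound by rule can be given for their folds: the signal with P was set against the dim signal, or against the lowest signal with P on that array (3.83 on either) where this was higher. Folds given as at least a value for such genes are these bounds. They are not sure minima, since values without P could lie above 3.83, as those of Il7r (4.00) and Cxcr3 (4.09) did in the saline pool. By their plain values 2 of the 9 reached 2-fold upwards and 5 downwards, but a gene detected on 1 array tends to lie apart: of all 935 such genes 24.9% reached 2-fold upwards and 33.2% downwards. At their bounds 1 was at least 2-fold higher, Il7r, and 1 at least 2-fold lower, Xcr1. Over the 60 members with P on at least 1 array the plain counts were 3 higher and 10 lower, where 3.57% and 5.08% of all 11912 such genes were. At 1.5-fold 7 of the 60 were higher and 15 lower, where 8.07% and 10.2% of these genes were, and at 3-fold 0 were higher and 4 lower, where 1.72% and 2.39% were.

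Promoters of chemokine and cytokine genes are known for sites of inflammatory transcription factors, and these were searched together with the TATA box. RefSeq promoters of the rat build GRCr8, from 250 bases before to 50 bases after the gene's start, were matched by gene ID for 86 of the 113 members, 46 of them detected. The motifs were the kappaB element bound by NF-kB, the STAT element GAS (TTCNNNGAA), the core of the interferon-stimulated response element ISRE (GAAA repeated after any 2 bases), each on both strands, and the TATA box (TATAAA) on the gene's strand. A kappaB match was present in 11 of the 46 promoters (23.9%), against 7.6% of all 27457 promoters of this length. A GAS match was present in 6 (13%, against 8.68%), an ISRE core in 8 (17.4%, against 3.77%) and a TATA box in 10 (21.7%, against 9.08%). Among the 40 promoters of undetected members, 7 (17.5%) held a kappaB match, 5 (12.5%) a GAS match, 0 an ISRE core and 6 (15%) a TATA box.

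Of the 6 genes with P on both arrays that were at least 2-fold apart, 4 had a promoter in the table, and the 2 with a match are printed first, 5′ to 3′ on the gene's strand with the matches in capitals. Cxcl13 (GRCr8, chr14:13917871-13918170, minus strand) has a TATA box that starts 33 bases before the gene's start. Il18bp (chr1:165786906-165787205, minus strand) has an ISRE core 39 bases after it. Cxcl10 (chr14:15988816-15989115, plus strand), whose signal was nearly equal in both pools, has 5 matches: an ISRE core at bases 8 to 17 of the window, 3 kappaB matches at 64 to 73, 123 to 132 and 124 to 133, of which the last 2 overlap, and TATAAA at 89 to 94. The other matches shown do not overlap each other. A match is a description of letters and not a binding site.
Cxcl13: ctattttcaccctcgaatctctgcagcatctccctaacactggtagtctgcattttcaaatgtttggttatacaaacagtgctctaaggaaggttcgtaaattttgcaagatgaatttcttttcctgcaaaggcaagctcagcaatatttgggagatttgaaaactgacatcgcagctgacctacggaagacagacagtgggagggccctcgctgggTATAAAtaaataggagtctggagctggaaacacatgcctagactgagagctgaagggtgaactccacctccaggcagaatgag
Il18bp: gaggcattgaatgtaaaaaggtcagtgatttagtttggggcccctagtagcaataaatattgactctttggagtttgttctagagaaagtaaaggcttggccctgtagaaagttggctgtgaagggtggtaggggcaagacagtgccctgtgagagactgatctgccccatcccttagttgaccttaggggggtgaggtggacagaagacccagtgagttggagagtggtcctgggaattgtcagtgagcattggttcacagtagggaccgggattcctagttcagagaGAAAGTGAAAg
Cxcl10: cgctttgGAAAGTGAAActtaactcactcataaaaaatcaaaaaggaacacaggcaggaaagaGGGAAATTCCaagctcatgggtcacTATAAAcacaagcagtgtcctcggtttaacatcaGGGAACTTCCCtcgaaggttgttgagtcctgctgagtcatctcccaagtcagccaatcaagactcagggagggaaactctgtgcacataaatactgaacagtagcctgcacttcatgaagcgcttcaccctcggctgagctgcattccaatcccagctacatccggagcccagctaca

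CC chemokines, which attract monocytes, T cells and dendritic cells, lay on both sides of 0, with 1 of the 10 with P on both arrays at least 2-fold lower. Their median difference was -0.31, with 6 of 10 below 0, where 47.1% of all genes with P on both arrays lay below 0. Ccl3, which encodes MIP-1 alpha, an attractant of monocytes and T cells, had a log2 signal of 6.87 in the propolis pool and 8.11 in the saline pool, a difference of -1.24 (2.36-fold lower). Ccl4, which encodes the closely related MIP-1 beta, was nearly level at 7.51 in the propolis pool and 7.41 in the saline pool. Ccl6, a macrophage chemokine of rodents, had a signal of 12.78 in the propolis pool against 13.68 in the saline pool (-0.90). Ccl22, a product of macrophages and dendritic cells that attracts T cells through CCR4, was at 4.92 against 5.85 (-0.93, and -0.54 by a second probe). Its relative Ccl17 carried P on the saline array only and was at least 1.26-fold lower.

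Ccl5, a T cell and NK cell product also known as RANTES, was at 10.28 in the propolis pool and 10.82 in the saline pool (-0.55), and Ccl9 at 10.36 and 10.78 (-0.42). The remaining CC chemokines differed less. Ccl19, a ligand of CCR7, differed by -0.21, the eotaxin gene Ccl24 by 0.20, Ccl27 by 0.26 and the monocyte attractant gene Ccl2 by 0.33, at the low signals of 4.88 in the propolis pool and 4.55 in the saline pool. In RefSeq gene order on GRCr8, Ccl5, Ccl9, Ccl6, Ccl3 and Ccl4 lie next to each other in that order. Along this run of neighbours the first 4 were lower and the last was not, with differences of -0.55, -0.42, -0.90, -1.24 and 0.10. Ccl7, Ccl11, Ccl12, Ccl20, Ccl25, Ccl26 and Ccl28 were detected on neither array.

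CXC chemokines went both ways: of 8 with P on both arrays, 5 lay above 0, and 2-fold was reached by 1 higher gene and 2 lower genes. Cxcl13, which draws B cells to lymphoid follicles through CXCR5, had a log2 signal of 7.69 in the propolis pool against 6.38 in the saline pool, a difference of 1.31 (2.48-fold higher). Cxcl12, a stromal factor that holds CXCR4-bearing cells in tissue, was at 14.50 in the propolis pool and 13.79 in the saline pool (0.71, and 0.82 by a second probe). Cxcl17, a mucosal chemokine, was at 5.35 against 6.50 (-1.14, 2.21-fold lower). Cxcl14, an epithelial chemokine, was at 6.91 against 7.94 (-1.02, 2.03-fold lower). These genes rest on 1 probe each, apart from Cxcl12.

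The interferon-inducible ligands of CXCR3 showed no common direction. Cxcl11 had a difference of 0.42 (9.33 in the propolis pool, 8.91 in the saline pool), Cxcl10 of 0.03 (7.28 and 7.25) and Cxcl9 of -0.17 (8.24 and 8.41), and these 3 are neighbours in the gene order. Cxcl1, a neutrophil attractant, differed by 0.08 at 7.75 in the propolis pool and 7.67 in the saline pool. Cxcl3, of the same group, carried P on the saline array only and was at least 1.64-fold lower, and Cxcl2 and Cxcl6 were detected on neither array. The membrane-bound chemokine gene Cx3cl1 differed by 0.05 and the lymphotactin gene Xcl1 by -0.12.

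**Figure D2:**
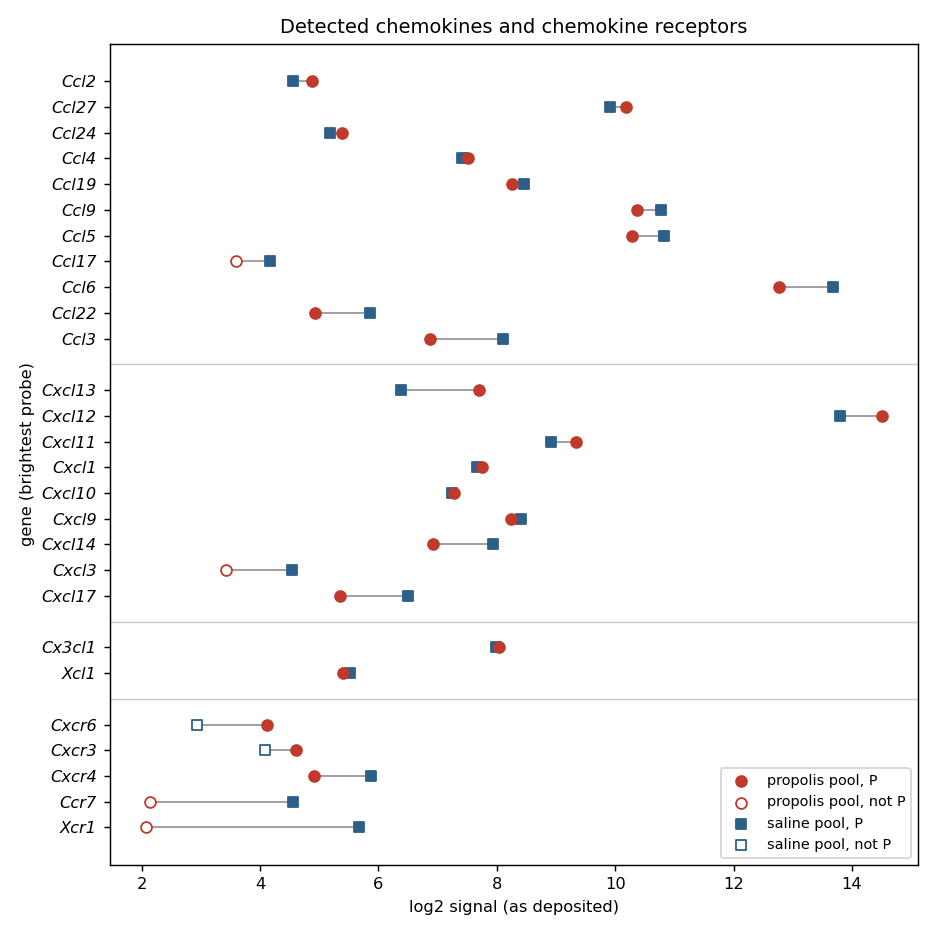
Log2 signal of the detected chemokine and chemokine receptor genes described here in the propolis pool (red circles) and the saline pool (blue squares), with open symbols where the array gave no P. Grey lines separate CC, CXC, other chemokines and receptors; Cxcl13 and Cxcl12 are to the right in the propolis pool, and Ccl3, Ccl6, Ccl22 and Cxcr4 to the left. Signals of different genes come from different probes and are not comparable.

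Of 19 chemokine receptor genes 6 carried P on at least 1 array. Cxcr4, the receptor of CXCL12, had a log2 signal of 4.91 in the propolis pool against 5.87 in the saline pool (-0.97, and -0.84 by a second probe), just under 2-fold lower, while the gene of its ligand lay on the other side of 0.

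Xcr1, which marks cross-presenting dendritic cells and binds XCL1, had a value of 2.08 without P in the propolis pool and 5.68 in the saline pool, and was at least 3.59-fold lower. Ccr7, which guides dendritic cells and naive T cells to lymph nodes, had 2.14 without P in the propolis pool and 4.56 in the saline pool, at least 1.66-fold lower. The opposite holds for Cxcr6, a receptor of liver-resident lymphocytes, which was at least 1.22-fold higher (4.11 in the propolis pool, 2.94 without P in the saline pool), and for Cxcr3, a receptor of activated T cells, at least 1.43-fold higher (4.61, and 4.09 without P). Cxcr6 and Xcr1, which lie on opposite sides of 0, are neighbours in the gene order. The bounds of Ccr7, Cxcr6 and Cxcr3 are under 2-fold. The other 13 receptor genes, among them Ccr1, Ccr2, Cx3cr1 and the receptors of neutrophil attractants Il8ra and Il8rb (now Cxcr1 and Cxcr2), had no P on either array, and neither had Ccr3, Ccr4, Ccr6, Ccr8, Ccr9, Ccr10, Cxcr5 and Cxcr7 (now Ackr3).

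In the IL-1 family the detected inhibitor genes had lower values in the propolis pool, and the ligand genes lay on both sides of 0, from -0.31 for Il18 to 0.95 for Il1f8. The binding protein gene Il18bp, whose product neutralises IL-18 and is induced by interferon gamma, had a log2 signal of 8.12 in the propolis pool and 9.24 in the saline pool (-1.12, 2.17-fold lower). The receptor antagonist gene Il1rn, whose product blocks IL-1 at its receptor, was at 10.38 against 10.88 (-0.50, and -0.72 by a second probe). The decoy receptor gene Il1r2 carried P on the saline array only and was at least 1.38-fold lower. Of these 3 genes Il18bp reached 2-fold with P on both arrays, and Il1f5 (now Il36rn), which encodes the IL-36 receptor antagonist, was detected on neither array.

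Il1b, the main secreted IL-1, was at 8.40 in the propolis pool and 8.64 in the saline pool (-0.24, and -0.13 by a second probe), and Il1a at 6.43 and 6.05 (0.38). Il18, which induces interferon gamma, differed by -0.31 (-0.69 by a second probe), and Il33, an alarmin of tissue cells, by 0.06 (0.24 by a second probe). Of the IL-36 genes, Il1f8 (now Il36b) was at 7.23 in the propolis pool against 6.28 in the saline pool (0.95, 1.93-fold higher) and Il1f6 (now Il36a) differed by 0.25. The signalling receptor gene Il1r1 was lower by both of its probes (-0.58 and -0.54), at 7.19 in the propolis pool and 7.77 in the saline pool, while its partner Il1rap was at 11.47 and 11.22 (0.25). Il1f10, Il18rap, Il1rl1, which encodes the IL-33 receptor, Il1rl2, Il1rapl1 and Il1rapl2 were not detected.

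Among the other interleukins 5 of 18 carried P, and Il13 had the largest difference of all members with P on both arrays. Il13, a type 2 cytokine that acts on macrophages and stellate cells, had a log2 signal of 4.90 in the propolis pool and 7.04 in the saline pool, a difference of -2.14 (4.40-fold lower). Il13 has 1 probe, at chromosome 10 from 39093534 to 39093593 in the deposited coordinates, for which the sources used here name no build. In the same coordinates the Ccl3 probe lies on chromosome 10 from 71744611 to 71744670, the Xcr1 probe on chromosome 8 from 128616666 to 128616725 and the brightest Il7r probe on chromosome 2 from 59104915 to 59104974. Il4, the neighbour of Il13 in the gene order and also a type 2 cytokine, was level at 4.31 in both pools. A second Il4 probe had no P on either array. Il7, a stromal survival factor of T cells, was at 4.86 in the propolis pool and 4.25 in the saline pool (0.61), Il15, a survival factor of NK and memory T cells, at 6.86 and 6.57 (0.30), and Il17b at 6.41 and 6.12 (0.29). The other 13 were detected on neither array: Il2, Il3, Il5, Il6, Il9, Il10, Il11, Il12a, Il12b, Il16, Il17d, Il23a and Il24.

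Interleukin receptor genes outside the IL-1 family differed by less than 2-fold wherever both arrays gave P, with 9 of 14 below 0 and a median of -0.09. The IL-6 receptor is made of a binding chain and a shared signalling chain, and these lay on opposite sides of 0: Il6ra was at 10.80 in the propolis pool against 11.33 in the saline pool (-0.54), and Il6st, which encodes gp130, at 9.93 against 9.62 (0.31). The 2 chains of the type 2 receptor for IL-4 and IL-13 were both lower, Il4ra by -0.27 with 1 detected probe and Il13ra1 by -0.53, with its 4 probes all between -0.67 and -0.53. Il2rb, a chain shared by the IL-2 and IL-15 receptors, differed by -0.55 and Il3ra by -0.55. In the IL-17 receptor family Il17rb was at 5.59 in the propolis pool and 4.73 in the saline pool (0.86), Il17re at 5.44 and 6.08 (-0.64), Il17ra differed by -0.08 (-0.34 by a second probe) and Il17rc by -0.03. Il10rb (0.26), Il22ra1 (0.14), Il27ra (0.10) and Il11ra1 (-0.10) were close to 0.

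Il7r, the IL-7 receptor chain of T cells and innate lymphoid cells, was read by 3 probes, each with P in the propolis pool and none in the saline pool. The brightest had 5.55 in the propolis pool and 4.00 without P in the saline pool. Its bound, here equal to the plain difference, was 2.92-fold higher. The others had 5.19 and 4.64 in the propolis pool, against 3.19 and 2.19 in the saline pool, with bounds of 1.36 and 0.82 on the log2 scale. Il12rb1, a chain of the IL-12 and IL-23 receptors, had 1.96 without P in the propolis pool and 4.11 in the saline pool, at least 1.22-fold lower. Not detected were Il2ra, Il5ra, Il9r, Il10ra, Il12rb2, Il13ra2, Il20ra, Il21r, Il22ra2, Il28ra (now Ifnlr1) and Il31ra.

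**Figure D3:**
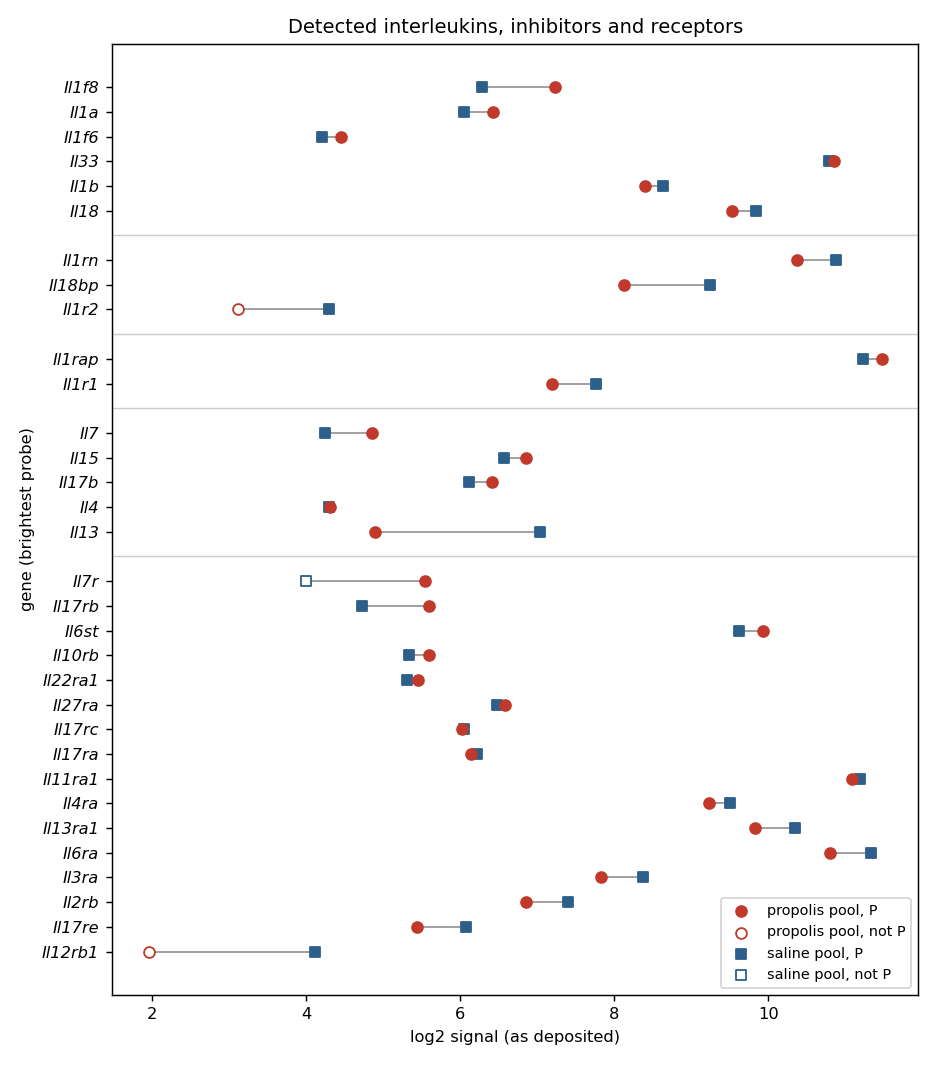
Log2 signal of each detected interleukin, inhibitor and interleukin receptor gene in the propolis pool (red circles) and the saline pool (blue squares), with open symbols where the array gave no P. Grey lines separate IL-1 family ligands, inhibitors and receptors, other interleukins and other receptors; Il13 has the widest gap with P on both arrays and lies to the left in the propolis pool.

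Where a second probe was detected on both arrays it lay on the same side of 0 as the brightest in all 11 members that had one, while over all 2595 such genes the share was 70.2%. These shares are not directly comparable, since probes of a gene near 0 fall on either side more easily. Of all genes with P on both arrays 87.1% lay within 1.5-fold, against 70.6% of the members. In the 11 members the gaps between the probes ran from 0.04 to 0.39 log2 units with a median of 0.18. None of the 6 members that were at least 2-fold apart with P on both arrays had such a second probe.

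**Figure D4:**
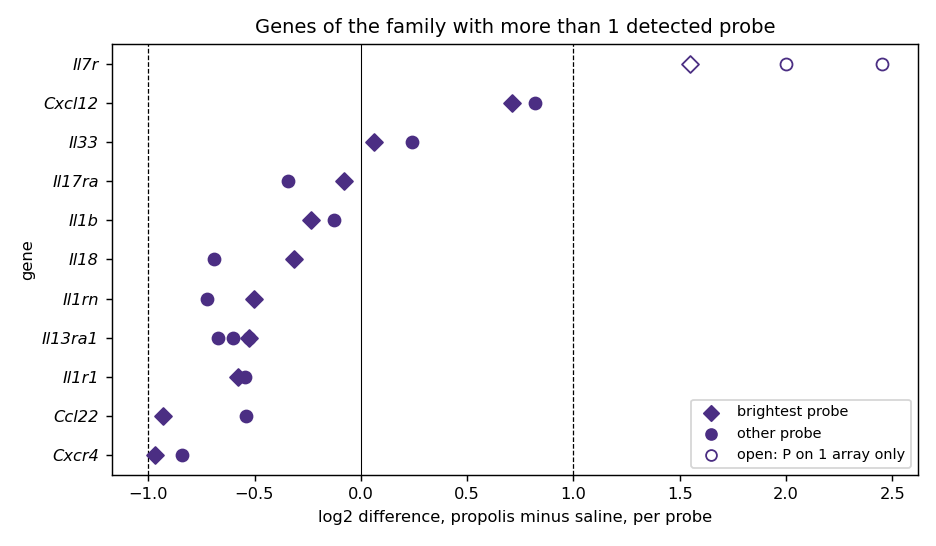
Log2 difference (propolis minus saline) for the detected probes of genes described here with more than 1 detected probe, with the brightest as a diamond and others as circles, and open symbols for P on 1 array only. All probes of a gene lie on 1 side of 0. The open Il7r values are plain differences, and the bounds are smaller for its dimmer probes but not for the brightest.

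Of 43 textbook ligand and receptor pairs among the members, 7 had P on both arrays for both partners. In 2 of these both partners were lower, in 1 both were higher, Il17b with Il17rb, and in 4 they lay on opposite sides of 0, counting Il4, at 0.00, with Il4ra (Il4 was at -0.08 after loess centring on signal). The 2 were Il1b with Il1r1 and Il13 with Il13ra1. In another 14 pairs the ligand was detected on both arrays and the receptor on neither, among them Cxcl13 with Cxcr5. These counts depend on the pairs chosen. Some ligands have further receptors among the members that were not paired with them, as Il13 with Il4ra.

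Another 6 genes with P on both arrays that the symbols leave out encode chemokines, chemokine receptors or, as Cmklr1 and Cklf do, related proteins. All 6 lay below 0, with a median of -0.65, where 47.1% of all genes with P on both arrays did. The CCR7 ligand gene Ccl21b (now Ccl21) was at 7.04 in the propolis pool and 8.60 in the saline pool (2.95-fold lower). The chemerin receptor gene Cmklr1 differed by -0.94, Ccrl2 by -0.75, the platelet chemokine genes Pf4 by -0.55 and Ppbp by -0.10, and Cklf by -0.03. Among other cytokines, 8 of 13 on the array were detected and none was 2-fold apart, with Lif at 0.45, Clcf1 at 0.36 and Mif at 0.28, and Tnf, Ifng, Osm, Csf2 and Csf3 had no P on either array.

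Downstream genes mostly differed by less than 2-fold. In the JAK and STAT chain 12 of 20 genes with P on both arrays lay below 0, with a median of -0.06, and 1 was at least 2-fold apart: Socs2, a brake on growth hormone and cytokine signals, at 6.59 in the propolis pool and 4.53 in the saline pool (2.06). In the chain from the IL-1 receptor to NF-kB 10 of 18 lay below 0, with a median of -0.14, and the adaptor gene Traf6 was 2.14-fold lower (7.44 against 8.54). In the genes that relay chemokine receptor signals 11 of 14 lay below 0, with a median of -0.29 and none 2-fold apart: Arrb2, which encodes a beta-arrestin, differed by -0.82, Plcb2 by -0.67 and Gng2 by -0.58. Of 14 hepatocyte genes that respond to IL-6 and IL-1, 13 were lower, with a median of -0.64. Lcn2, which encodes lipocalin 2, was at 4.59 in the propolis pool and 14.66 in the saline pool, and the acid glycoprotein gene Orm1 at 15.02 and 17.24. The rat acute phase gene A2m lay on the other side (0.94), and Il6 itself was not detected in either pool.

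Markers of macrophages, neutrophils and T and NK cells mostly had lower values in the propolis pool, and their part in the differences above was not tested. In pooled tissue, fewer cells of a type and less RNA per cell cannot be told apart. Of 14 Kupffer cell and macrophage markers, all detected, 13 were lower, with a median of -0.60 and a log2 of the summed signal of the genes with P on both arrays of 16.39 in the propolis pool and 16.94 in the saline pool. The scavenger receptor gene Marco differed by -2.53 and the integrin gene Itgam by -1.71. Of 12 T and NK cell markers with P on both arrays, 11 were lower (median -0.44, log2 summed signal 10.64 in the propolis pool and 11.19 in the saline pool), with the kinase gene Lck at -1.48. Cd2, Cd3e, Cd5 and Ncr1 had no P on either array.

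The 3 neutrophil markers with P on both arrays were at least 2-fold lower, where 2.69% of all genes with P on both arrays were. They were Prtn3 (-1.93), S100a8 (-1.60) and S100a9 (-1.04). Their log2 summed signal was 8.29 in the propolis pool and 9.64 in the saline pool, and Mpo was at least 3.40-fold lower and Camp at least 1.21-fold higher, while Csf3r, Elane, Mmp8 and Mmp9 were not detected. Of the B cell markers, 1 had P on both arrays, Jchain at 0.67, Cd79b was at least 2.26-fold higher and Blk at least 2.15-fold lower, and Cr2 and Ms4a1, which mark B cells, were not detected, beside the higher Cxcl13. Sinusoidal endothelial markers had a median of -0.38 with 7 of 8 lower (log2 summed signal 14.64 in the propolis pool and 14.69 in the saline pool; Cdh5 at -0.68, Lyve1 at -0.63 and Pecam1 at -0.63). Stellate cell markers, beside the higher Cxcl12, had a median of -0.10 with 5 of 9 lower (15.51 and 16.08; Vim at -0.75 and Reln at 0.55).

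Of the cholangiocyte markers 3 had P on both arrays, among them Epcam at 0.67 and Krt19 at -0.66, with a log2 summed signal of 9.04 in the propolis pool and 8.87 in the saline pool. Cftr was at least 4.80-fold lower and Spp1 at least 1.31-fold lower, and Sox9 was not detected. The 10 hepatocyte markers had a median of -0.05 (20.42 in the propolis pool and 20.34 in the saline pool), with Cyp2e1 at 1.07, Tat at -0.62 and Ass1 at -0.57.

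**Figure D5:**
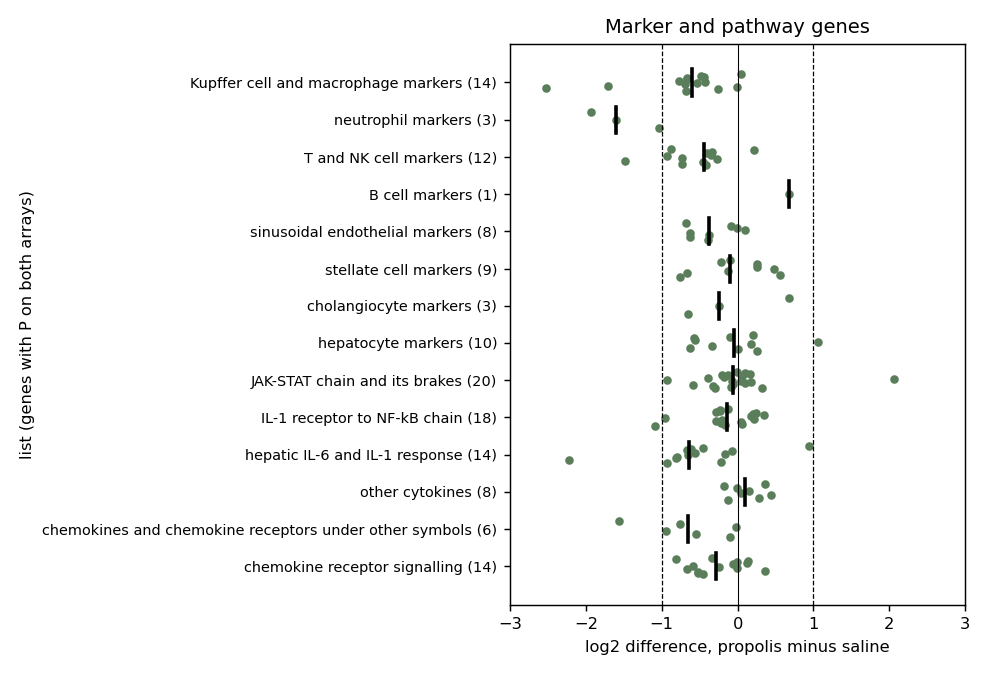
Log2 difference (propolis minus saline) of each marker and pathway gene with P on both arrays, 1 row per list with the number of genes in brackets, and the median as a black bar. Dashed lines mark 2-fold; macrophage, neutrophil and T and NK cell markers lie mostly to the left of 0, and 1 gene, Lcn2, falls outside the axis.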

How the data were processed

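The authors deposited log2 signals for 41012 probes, the letters P, M and A, and a fold ratio. The log2 of the deposited ratio is the propolis value less the saline value (largest gap 1.84e-07). Per the submitters' processing notes, the software was Agilent Feature Extraction 9.5. How signals were normalized and background-corrected, and what the letters mean, was not given in the sources used here. Sorted columns differed by at most 0.0255, and both had a median of 5.07. P was taken as detected: 24380 probes (59.4%) on the propolis array, 24344 (59.4%) on the saline array and 23054 on both. The authors' deposited series matrix repeats the log2 values of those 23054 probes, rounded (largest gap 0.005) and uncentred, with medians of 7.53 and 7.52. RNA samples pooled had an integrity number above 8.5, per the labels' protocols.

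Genes followed the file's symbols; all 113 members matched RefSeq by Entrez ID and 9 have another current name. In the marker and pathway lists genes were found by current symbol. Members and lists were chosen with earlier results of these data known. Detected members were named, apart from items not reported here, and in the other lists the detected genes at least 2-fold apart, or else up to 3 furthest from 0, with others named after their values were seen. The counting code was checked on simulated data with shifts far larger than the noise, which does not bear on the reliability of the counts. Alternatives were median centring, quantile normalization, loess centring (span 0.3), series matrix values, other filters, probe rules and thresholds, 50 signal units added, bounds and current symbols. Python 3.11.15, numpy 2.4.6, pandas 2.3.3, statsmodels 0.14.6 and matplotlib 3.10.9 were used. The number of arrays limits the precision.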

Additional observations from a re-analysis of the deposited data

How the results depend on the processing

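With 1 array per group, settings could be compared but not tested. Of the 13 members at least 2-fold apart with P on at least 1 array (3 higher and 10 lower in the propolis pool), all 13 stayed at least 2-fold apart on the same side under median centring, quantile normalization, loess centring, the mean of the detected probes and the detected probe nearest 0. Both columns already had the same median and nearly the same sorted values, so median centring and quantile normalization could change little. Among the 13, only Il7r had more than 1 detected probe, so the probe rules could move no other. Restricted to P on both arrays, or with the series matrix values, 1 was higher and 5 were lower. With genes on 1 array at their bound, 2 were higher and 6 lower. With 50 signal units added, which shrinks differences of dim probes, 0 were higher and 1 was lower, Il13. At 1.5-fold the counts were 7 and 15 (8.07% and 10.2% of all genes), and at 3-fold 0 and 4 (1.72% and 2.39%). The median difference of detected members, -0.11, stayed between -0.16 (loess centring) and -0.04 (no filter). No called member changed sign under any of these settings, but most of the settings could not change a sign. Adding 50 units to both signals keeps the side of 0, and so do the bounds by rule. Filters, thresholds and series matrix values reuse the same differences. No paired analysis was possible because each group has 1 array. Low signal limits the fold of Il13, Cxcl17, Cxcr4 and Ccl22, whose propolis values lay between 4.90 and 5.35.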

Other observations

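With current RefSeq symbols in place of the file's, the same naming rule again gave 113 genes. Ccl21 (Ccl21b in the file) and Il17a entered, and Cxcr7 and Il28ra left. Ccl21 was at a log2 signal of 7.04 in the propolis pool and 8.60 in the saline pool, and Il17a, the founding IL-17 cytokine, was detected on neither array. Both chemokines that bind CCR7 were thus below 0, Ccl21 at -1.56 and Ccl19 at -0.21, and the gene of the receptor carried P on the saline array only.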
